A study of Mus musculus with 4 samples.

Results

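Mouse embryonic stem cells (ESCs) carry, beside the transcription factors that hold pluripotency, a set of proteins that mark the stem cell state and drop when the cells differentiate. They act at different points: *Eras* encodes a Ras-like GTPase that signals through PI3K, *Tcl1* encodes a co-activator of the kinase Akt, and *Lin28a* encodes an RNA-binding protein that blocks maturation of the let-7 microRNAs. *Utf1*, *Zfp42* (also called Rex1), *Dppa2*, *Dppa3* (Stella) and *Dppa4* encode nuclear proteins, *Dppa5a* encodes a small protein with a KH-like domain, and *L1td1* encodes an RNA-binding protein derived from a LINE-1 retrotransposon. Here these 10 stem cell state markers are followed in female ESCs treated with GSK-J4, a small molecule that enters cells and inhibits histone demethylases of the JmjC class, and with L-ascorbic acid (AA), a cofactor of enzymes of that class.

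The 10 markers were chosen by name, with the GSK-J4 log2 ratios of earlier analyses of these data in view, so their GSK-J4 values are given as a description and without a test. Of the 10, 8 had a row in the deposited tables and 7 had a value in all 4 libraries, out of 9779 genes with a value. *Zfp42* had a failed estimate in the cells without AA and is listed at 0 in 3 of the 4 libraries, and no ratio is given for it. The expression of *Dppa2* and *L1td1* was not analysed here.

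RNA-Seq was performed on LF2 cells, a female ESC line of strain 129/J that was grown on feeder cells and passaged without them before treatment. The 4 conditions were PBS+DMSO, the vehicles alone, PBS+GSK-J4 with 10 μM GSK-J4, AA+DMSO with 50 μg/ml AA, and AA+GSK-J4 with both agents at these doses, each for 24 hr. Each condition is 1 library of 1 line, so no difference below has a replicate error, no p-value was computed, and a difference applies to these libraries. The values are FPKM, in which fragments are divided by exon length and by the mapped total of the library, and so allow levels to be compared between genes. The number of reads is unknown. Log2 ratios are taken after adding 1 to each FPKM, among genes that reach 1 FPKM in at least 1 of the libraries compared, and "called" means a ratio of at least 2-fold.

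The ESC label was checked against *Pou5f1*, *Sox2*, *Nanog*, *Esrrb*, *Klf4* and *Tfcp2l1*, and all of them were present in every library, from 23.5 FPKM for *Tfcp2l1* in PBS+GSK-J4 to 867 FPKM for *Pou5f1* in PBS+DMSO. Of 14 fibroblast markers that could come from feeder cells, 7 had a value and none was at 0. Their summed FPKM was 76.6 in PBS+DMSO against 85.7 in PBS+GSK-J4, and with AA it was 68.6 in DMSO and 77.2 in GSK-J4. The sum was thus higher in each GSK-J4 library than in its DMSO partner, but in each comparison 2 of the 7 were lower. *Vim* was lower in both, at 34.5 FPKM in PBS+DMSO against 20.1 in PBS+GSK-J4, and at 28.5 in AA+DMSO against 17.8 in AA+GSK-J4. *Col1a1*, which encodes a fibrillar collagen, lay between 2.83 and 4.28 FPKM. The part of these cells in the results was not tested, and in bulk RNA fewer cells of a type and less RNA per cell cannot be told apart.

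With GSK-J4, all 7 markers with a value were lower, without AA and with AA, beside 63.0% and 62.2% of all genes. *Eras*, *Lin28a*, *Utf1* and *Dppa3* were at least 2-fold lower in both comparisons, and *Tcl1*, *Dppa4* and *Dppa5a* were lower by less than 2-fold. Of all genes, 3.50% without AA and 3.38% with AA were at least 2-fold lower. The 2 GSK-J4 comparisons share no library. No marker differed by 2-fold with AA, and few genes did, 1.30% of all genes in DMSO and 1.11% in GSK-J4.

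*Eras*, at chrX:7924283-7928609, had the lowest GSK-J4 ratio of the markers without AA. It stood at 87.7 FPKM in PBS+DMSO against 22.2 in PBS+GSK-J4, and with AA it was 85.9 in DMSO and 24.7 in GSK-J4. Both GSK-J4 libraries were far below both DMSO libraries, and the level under GSK-J4 was 25.4% of control without AA and 28.7% with AA. The log2 ratios were −1.93 and −1.76, which ranked 7 of 9196 and 12 of 9139 genes from the lowest.

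*Lin28a*, at chr4:134003199-134018893, had nearly the same levels as *Eras* in every library. Its FPKM was 92.4 in PBS+DMSO against 24.2 in PBS+GSK-J4, and with AA it was 79.6 in DMSO and 24.1 in GSK-J4. The GSK-J4 libraries were alike, and the lower DMSO value with AA made the log2 ratio −1.68 with AA against −1.89 without it. These ranked 19 and 9 from the lowest.

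*Utf1*, at chr7:139943743-139945121, encodes a chromatin-associated protein and is a target of Oct4 and Sox2. It was the most highly expressed of the markers in the DMSO libraries, at 167 FPKM in PBS+DMSO and 172 in AA+DMSO, and it stood at 55.2 in PBS+GSK-J4 and 49.6 in AA+GSK-J4. It was therefore 3.02-fold lower with GSK-J4 without AA and 3.46-fold lower with AA, with log2 ratios of −1.58 and −1.77. Its ratio with AA was the lowest of the 7 markers, at rank 11, and without AA it was at rank 33.

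*Dppa3*, at chr6:122626428-122630264, is known from oocytes and primordial germ cells, and its maternal protein protects DNA methylation of the maternal genome after fertilisation. Its FPKM was 35.5 in PBS+DMSO against 13.2 in PBS+GSK-J4, and with AA it was 39.3 in DMSO and 14.3 in GSK-J4, the lowest level of the 7 markers in each library. Its log2 ratios were −1.37 and −1.39 without and with AA, which is 2.70-fold and 2.74-fold lower. *Dppa3* was the nearest of these 4 genes to the 2-fold threshold.

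The other markers lay inside the 2-fold threshold. *Tcl1*, at chr12:105216754-105222907, stood at 65.9 FPKM in PBS+DMSO against 36.1 in PBS+GSK-J4, and with AA it was 70.8 in DMSO and 47.0 in GSK-J4. Its GSK-J4 log2 ratios were −0.85 and −0.58 without and with AA, so the level with both agents lay between that of GSK-J4 alone and those of the DMSO libraries. *Dppa4*, at chr16:48283315-48294558, encodes a DNA-binding partner of *Dppa2*. Its FPKM was 48.9 in PBS+DMSO against 29.1 in PBS+GSK-J4, and with AA it was 47.8 in DMSO and 28.0 in GSK-J4, and its log2 ratios were −0.73 and −0.75. *Dppa5a*, at chr9:78366564-78373519, differed least without AA, from 163 FPKM in PBS+DMSO to 111 in PBS+GSK-J4 and from 156 in AA+DMSO to 102 in AA+GSK-J4. Its log2 ratios were −0.55 and −0.62, and with 1 library for each condition it cannot be said whether changes of this size exceed the replicate error.

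**Figure D1:**
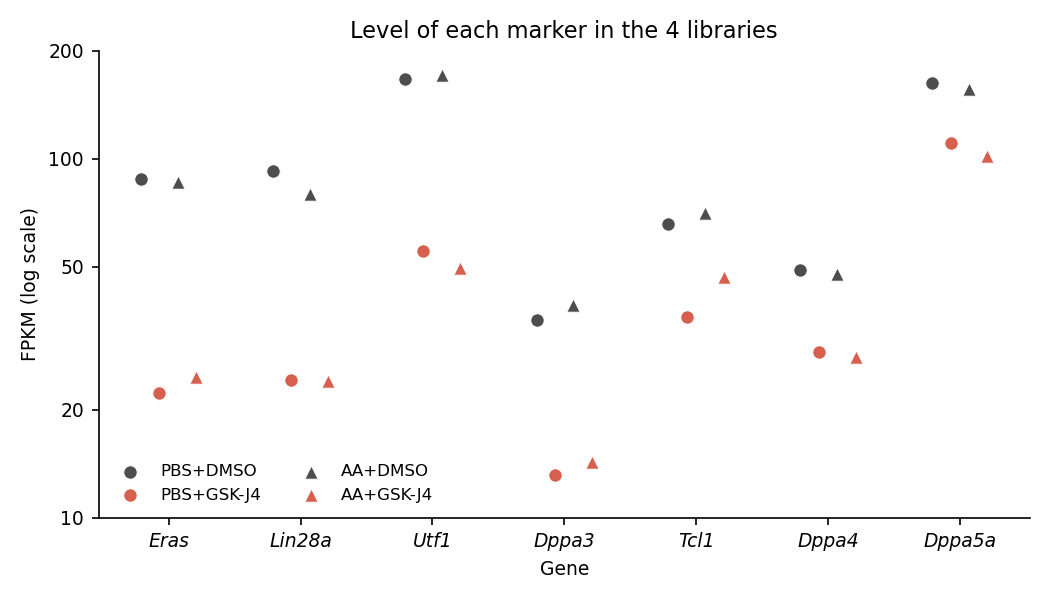
FPKM (log axis) of the 7 stem cell state markers with a value in the 4 libraries, 1 point for each library and gene. Every marker sits lower in the GSK-J4 libraries than in the DMSO libraries of the same AA state, and the widest gap without AA is that of *Eras* (87.7 against 22.2 FPKM).

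The order of the markers by level differed between the DMSO and the GSK-J4 libraries. In both DMSO libraries *Utf1* was the highest, *Dppa5a* the second and *Dppa3* the last. In both GSK-J4 libraries *Dppa5a* was the highest, at 111 and 102 FPKM, and *Utf1* was the second, at 55.2 and 49.6 FPKM. *Eras* and *Lin28a* held the places next to *Dppa5a* in the DMSO libraries and stood under *Tcl1* and *Dppa4* in the GSK-J4 libraries. Neighbours such as *Eras* and *Lin28a*, which changed places with AA, cannot be separated without replicates. Summed over the 7 markers, FPKM was 660 in PBS+DMSO against 291 in PBS+GSK-J4, and with AA it was 651 in DMSO and 289 in GSK-J4. As a share of the FPKM of all genes this was 0.183%, 0.105%, 0.190% and 0.107%, so the markers' share was smaller with GSK-J4 even though the summed FPKM of all genes was also smaller.

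The counts were set beside those of all genes. Without AA, 4 of the 7 markers were at least 2-fold lower with GSK-J4, and 3.50% of the 9196 genes were. With AA the same 4 of 7 markers were, and 3.38% of the 9139 genes. The markers were chosen on these contrasts, so nothing is read from the counts. The markers' medians on the log2 scale were −1.37 and −1.39 without and with AA, and that of all genes was −0.17 and −0.16, with 63.0% and 62.2% of genes below 0. Relative to the median of all genes, the markers' medians were −1.19 and −1.24. Among all genes, 322 were called lower and 456 higher without AA, so 41.4% of calls were lower. This split depends on scaling, and lower calls were 20.3% after centring on the median of all genes and 10.7% after scaling to equal totals. With AA, 309 were called lower and 377 higher, and lower calls were 45.0%, 22.9% and 13.7% in the same order. The 7 markers were below 0 in both comparisons under all of these scalings.

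More highly expressed genes had lower GSK-J4 ratios, and the markers with a value are well expressed. With the genes of each comparison divided into 10 equal groups by mean expression, the median log2 ratio without AA was 0.30 in the lowest group and −0.59 in the highest. *Dppa3* was in group 8, with a median of −0.36 for all genes of that group, against −1.37 for *Dppa3*. *Eras*, *Lin28a*, *Tcl1* and *Dppa4* were in group 9, where the median was −0.46 and 4.57% of genes were called lower. *Utf1* and *Dppa5a* were in group 10, where the median was −0.59 and 10.7% were called lower. *Dppa5a*, at −0.55, lay close to the median of genes of its level, and *Eras*, *Lin28a*, *Utf1* and *Dppa3* lay below theirs. The markers were chosen with these ratios in view, so their distance from the group medians is a description only. The part of expression level in the ratios was not tested. Without AA *Tcl1*, at −0.85, and *Dppa4*, at −0.73, lay below the lower quartile of group 9, which was −0.70. With AA the medians of groups 8 to 10 were −0.30, −0.41 and −0.53, and *Tcl1*, at −0.58, lay close to that of group 10, to which it belonged there. *Dppa4*, in group 9 with AA also, was at −0.75, below its lower quartile of −0.63.

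**Figure D2:**
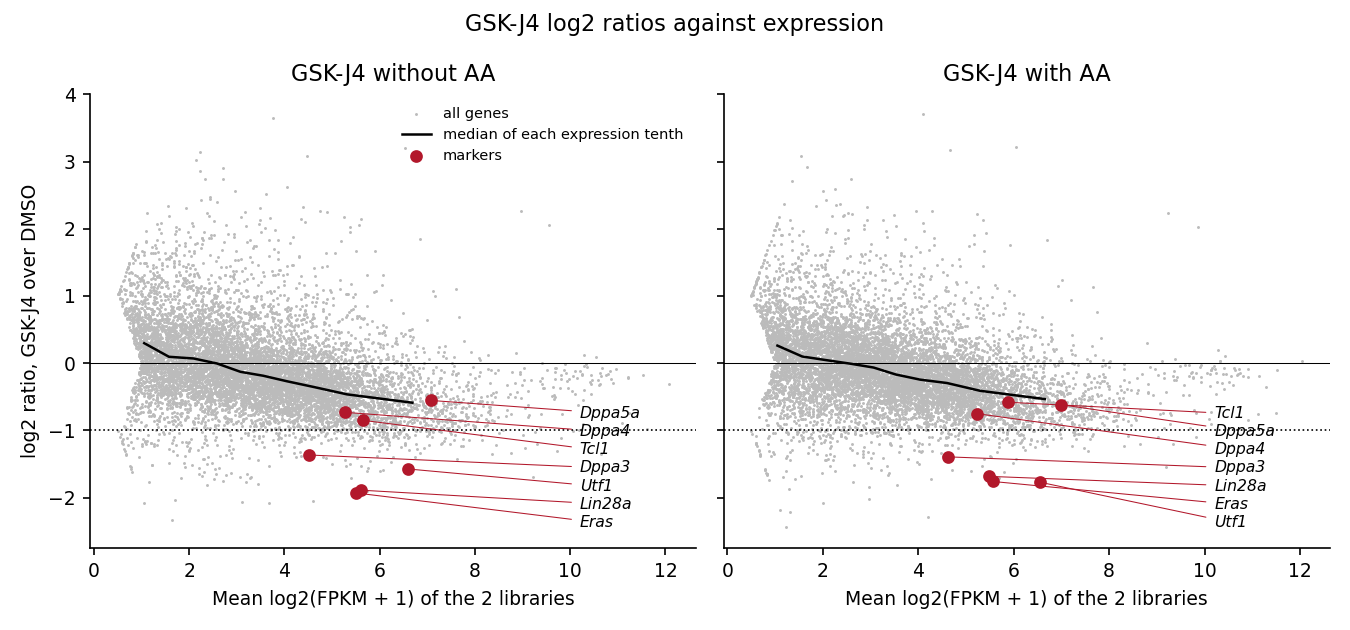
Log2 ratio of GSK-J4 over DMSO against the mean log2(FPKM + 1) of the same libraries, without AA (left) and with AA (right); grey points are all genes, the black line joins the medians of 10 groups by expression, and red points are the 7 markers. The line runs from 0.30 to −0.59 without AA, *Dppa5a* sits close to it without AA, and *Eras*, *Lin28a*, *Utf1* and *Dppa3* sit below the dotted 2-fold line in both panels.

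Promoter sequence is shown for the 3 markers called lower that have an entry in the RefSeq promoter table, *Eras*, *Lin28a* and *Utf1*, and for *Tcl1*, which was not called, so that the start regions of genes with larger and smaller ratios can be read side by side. Each is the 250 bases before the RefSeq start on GRCm38.p6, written on the strand of the gene, with the GC box (GGGCGG, or CCGCCC where it lies on the other strand) in capitals. They lie at chrX:7928608-7928857 on the minus strand for *Eras*, chr4:134018817-134019066 on the minus strand for *Lin28a*, chr7:139943606-139943855 on the plus strand for *Utf1* and chr12:105222738-105222987 on the minus strand for *Tcl1*.
Eras: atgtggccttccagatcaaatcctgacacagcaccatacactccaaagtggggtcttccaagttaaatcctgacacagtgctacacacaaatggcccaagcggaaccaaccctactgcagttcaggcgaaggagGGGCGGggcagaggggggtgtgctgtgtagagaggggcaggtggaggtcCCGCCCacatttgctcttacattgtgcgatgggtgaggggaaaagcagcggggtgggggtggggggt
Lin28a: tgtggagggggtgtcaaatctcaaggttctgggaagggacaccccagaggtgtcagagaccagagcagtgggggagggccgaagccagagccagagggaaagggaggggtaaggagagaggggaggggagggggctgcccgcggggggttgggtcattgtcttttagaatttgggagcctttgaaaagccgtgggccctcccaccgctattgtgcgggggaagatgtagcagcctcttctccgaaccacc
Utf1: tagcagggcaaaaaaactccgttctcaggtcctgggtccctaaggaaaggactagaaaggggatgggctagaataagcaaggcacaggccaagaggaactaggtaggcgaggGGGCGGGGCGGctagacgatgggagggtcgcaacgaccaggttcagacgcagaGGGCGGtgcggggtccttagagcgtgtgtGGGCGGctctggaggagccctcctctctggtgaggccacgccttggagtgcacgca
Tcl1: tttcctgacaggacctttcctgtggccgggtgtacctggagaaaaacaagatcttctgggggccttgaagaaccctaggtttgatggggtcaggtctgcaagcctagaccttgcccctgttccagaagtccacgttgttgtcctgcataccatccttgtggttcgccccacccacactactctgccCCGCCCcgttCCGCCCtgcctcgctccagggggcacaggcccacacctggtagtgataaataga

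Of the 10 markers, 6 matched the table, *Zfp42* and *L1td1* being the others. A GC box was in 4 of these 6 windows, with 4 matches in *Utf1*, 2 of them overlapping by 1 base, and 2 each in *Eras*, *Tcl1* and *Zfp42*, and in 32.7% of 32841 promoters of the same length. On either strand, the octamer ATGCAAAT was in 1 of the 6, *Zfp42*, and in 1.60% of all promoters. The TATA box TATAAA and the E-box CACGTG were in none of the 6, against 12.4% and 6.02% of all promoters, and the CCAAT box was in *Zfp42* only, against 33.9%. *Utf1* had 14 CpG dinucleotides in its window, *Lin28a* and *Tcl1* had 7 and *Eras* had 6, beside a median of 6 for all promoters. *Lin28a*, called lower, and *L1td1* held none of these motifs, and *Tcl1*, not called, held the same number of GC boxes as *Eras*. These are matches of letters in short windows and not binding sites.

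The comparisons of AA with PBS were made across the 2 deposited tables, and how those were scaled to each other is not stated. In DMSO, 4 of the 7 markers were below 0 and 3 above, beside 62.4% of all genes below 0. In GSK-J4 it was again 4 and 3, beside 55.4% of all genes below 0. None of the 7 was called in either, and 1.30% of 8843 genes were called in DMSO and 1.11% of 9180 in GSK-J4. The largest AA ratio among the markers was that of *Tcl1* in GSK-J4, which was 47.0 FPKM with AA and 36.1 without, a log2 ratio of 0.37, beside 0.10 in DMSO. *Lin28a* in DMSO was at 79.6 FPKM with AA and 92.4 without, a log2 ratio of −0.21, beside −0.01 in GSK-J4. *Dppa3* was slightly higher with AA in both, at 0.14 and 0.11, and *Utf1* was at 0.04 in DMSO and −0.15 in GSK-J4. *Eras* was at −0.03 and 0.14, *Dppa4* at −0.03 and −0.05 and *Dppa5a* at −0.06 and −0.12. The signs for *Eras*, *Dppa4* and *Dppa5a* in DMSO and *Lin28a* in GSK-J4 turned under other scalings. The 4 comparisons share libraries in pairs, so their values are given side by side only.

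The GSK-J4 log2 ratio with AA minus that without AA ranged over the markers from −0.20 for *Utf1* to 0.27 for *Tcl1*, with 0.21 for *Lin28a*, 0.17 for *Eras*, −0.02 for *Dppa4*, −0.03 for *Dppa3* and −0.06 for *Dppa5a*. No marker differed by 1 or more on the log2 scale, and 2.0% of 8972 genes did. The markers' median difference was −0.02 and that of all genes was 0.03.

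**Figure D3:**
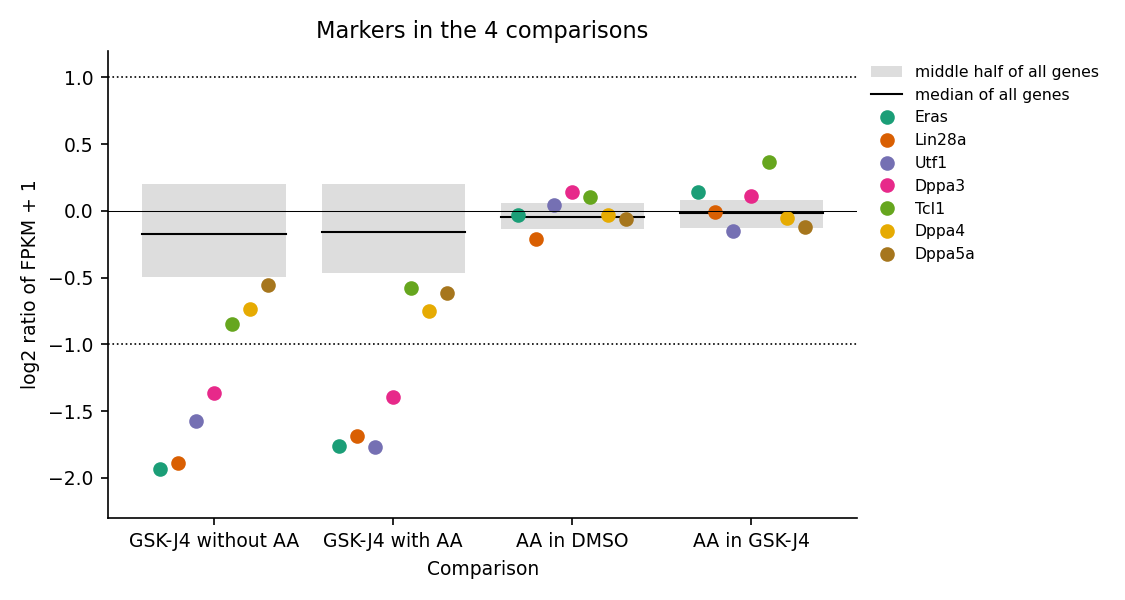
Log2 ratios of the 7 markers in the 4 comparisons, 1 point for each marker and comparison, with the median of all genes as a black bar and their lower to upper quartile as a grey band. The GSK-J4 ratios run from −1.93 to −0.55 and the AA ratios from −0.21 to 0.37, inside the dotted 2-fold lines.

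Profiles were compared over the 4 libraries by the distance between log2(FPKM + 1) values centred on each gene's mean, among 4345 genes with a mean FPKM of at least 10. For *Eras*, the nearest genes were *Lin28a* at a distance of 0.18, *Arglu1* at 0.18 and *Hnrnpdl* at 0.22. For *Lin28a* they were *Arglu1* at 0.08, *Hnrnpdl* at 0.16 and *Eras* at 0.18. *Arglu1* and *Hnrnpdl* encode RNA-binding proteins, and *Arglu1* stood at 19.3, 4.85, 17.4 and 4.89 FPKM in PBS+DMSO, PBS+GSK-J4, AA+DMSO and AA+GSK-J4. For *Utf1* the nearest were *Srsf2*, which encodes a splicing factor, at 0.05, *Racgap1* at 0.14 and *Arglu1* at 0.18. For *Dppa3* they were *Pipox* at 0.07, *Sgk1* at 0.09 and *Spin1* at 0.10. The nearest pairs among the markers themselves were *Dppa4* with *Dppa5a* at 0.16 and *Eras* with *Lin28a* at 0.18, and the farthest were *Eras* and *Dppa5a* at 1.27.

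On each side of a marker, the nearest gene with a row in the tables was read. These genes need not be the nearest in the annotation, and they lay from 85 bases (*Ooep*) to 1787 kb (*Pvrl3*, beside *Dppa4*) away. Of 13 neighbours with a ratio without AA, 8 were below 0 and none was called lower, and with AA 9 of 14 were below 0 and 1, *Pcsk1n*, was. *Hdac6*, which lies 1424 bases from *Eras*, stood at 60.7 FPKM in PBS+DMSO against 73.2 in PBS+GSK-J4, and with AA it was 65.4 in DMSO and 76.8 in GSK-J4. It was thus higher with GSK-J4, at 0.27 and 0.23, where *Eras* was lower. *Pcsk1n*, on the other side of *Eras*, was at −0.69 without AA and −1.48 with AA. The genes read for *Utf1*, *Inpp5a* at 361 kb and *Tubgcp2* at 50.0 kb, had ratios between 0.02 and 0.20. *Nanog*, the neighbour of *Dppa3*, was at −0.75 and −0.73, and *Ooep*, beside *Dppa5a*, was at −0.69 and −0.78. The cells are female and *Eras* is X-linked. The median log2 ratio was −0.17 for X-linked and for autosomal genes without AA, and 5.16% of 349 X-linked and 3.44% of 8846 autosomal genes were called lower. With AA the medians were −0.14 and −0.16, and 3.20% of 344 X-linked and 3.39% of 8794 autosomal genes were called lower.

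Some markers have near copies that could share reads. At 90% identity or more over at least 100 bases, *Utf1* and *Tcl1* matched no other transcript of GENCODE M21. *Eras* shared 135 identical bases with a transcript of *Pcsk1n*, and *Lin28a* shared 106 bases with *Gm13061*. *Dppa3* matched 3 pseudogenes, the closest *Dppa3-ps* at 98.2% identity, *Dppa4* matched 2 and *Dppa5a* matched 10 other gene models. How the authors' counting divided such reads is not given in the sources used here, so the levels of the *Dppa* genes are less certain than that of *Utf1*.

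Other lists of pluripotency genes were also mostly below 0 with GSK-J4, to different degrees. Of 14 core naive pluripotency factors with a value, 13 were below 0 without AA and 12 with AA, with medians of −0.52 and −0.36, and 1 and 2 were called lower. Those called were *Gbx2*, a homeobox factor, at −1.57 and −1.52, and with AA *Nr0b1*, an orphan nuclear receptor, at −0.80 without AA and −1.03 with it. *Pou5f1*, which encodes Oct4 and was the highest of the list, was at −0.76 and −0.74, close to *Dppa4*. Of 14 other ESC-associated genes, 13 and 12 were below 0, with medians of −0.66 and −0.61. *Fbxo15* was at −0.96 and −0.95, and *Tdgf1*, a Nodal co-receptor, was at −0.78 without AA and was the gene called with AA, at −1.01. Among formative and primed pluripotency genes, 4 of 7 were called lower without AA and 4 of 5 with AA, with medians of −1.08 and −1.37, which are nearest to those of the markers. They included *Dnmt3b*, a DNA methyltransferase, at −2.05 and −2.29, and *Otx2*, a homeobox factor, at −1.70 and −1.42. The medians of these lists stayed below 0 under every scaling tried, while the core naive factors below 0 numbered 9 of 14 in both comparisons after scaling to equal totals, with medians of −0.15 and −0.05. The calls with AA near the threshold did not hold, and under each scaling 1 core naive factor in place of 2 and 0 other ESC-associated genes in place of 1 were called lower. Of the formative and primed genes, 3 were called lower in each comparison under each scaling.

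Genes linked to *Lin28a* through let-7 were mixed. Of 14 genes of the Lin28 and let-7 axis, 13 were below 0 without AA and 9 with AA, with medians of −0.59 and −0.54, and 2 were called lower in each. *Myc* was called in both, at −1.12 and −1.20. *Hmga1*, a chromatin protein, was called without AA only, at −1.06 and −0.98, and *Ccnd1* with AA only, at −0.99 and −1.13. *Lin28b*, named here as the paralog of *Lin28a*, was weakly expressed, at 2.54 FPKM in PBS+DMSO against 2.52 in PBS+GSK-J4, and with AA it was 2.08 in DMSO and 3.41 in GSK-J4, with log2 ratios of −0.01 and 0.52. *Zcchc6* was called higher in both comparisons. Without AA the call rests on an FPKM listed near 0 in PBS+DMSO, so no fold is given. With AA it was at 1.24 FPKM in DMSO and 4.21 in GSK-J4, a log2 ratio of 1.22. The medians of this list also stayed below 0 under every scaling, but without AA no gene was called lower under any of them, and with AA 1 was after centring on the median and 0 under the others.

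In the Ras, PI3K and Akt pathway, in which *Eras* and *Tcl1* act, no gene of 17 was called lower. The medians were −0.29 and −0.14, and the sign turned under scaling, with medians of 0.07 and 0.17 after scaling to equal totals. *Hras*, the family comparison for *Eras*, was at 39.3 FPKM in PBS+DMSO against 31.5 in PBS+GSK-J4, and with AA it was 36.4 in DMSO and 28.3 in GSK-J4. Its log2 ratios were −0.31 and −0.35, against −1.93 and −1.76 for *Eras*. *Foxo3*, a transcription factor that Akt restrains, was higher at 0.94 and 0.99, and *Rheb* was at −0.48 and −0.34. The call of *Pik3cb* as higher with AA rests on an FPKM listed near 0 in AA+DMSO. As deposited, 0 genes of the list were called higher without AA and 1 with AA, and under each scaling 1 and 2 were.

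Genes related to *Dppa3* by DNA methylation or by the germline were mixed. Of 8 listed genes of DNA methylation, 5 had a value and 3 were not analysed. All 5 were below 0, of which 3 were called lower without AA and 1 with AA, with medians of −1.01 and −0.31. The call with AA was that of *Dnmt3b*, which is also among the formative and primed genes. Under each scaling 2 were called lower without AA and 1 with AA. After scaling to equal totals 4 of the 5 were below 0 in each comparison, with medians of −0.63 and −0.04. The call of *Tet3*, which encodes a 5-methylcytosine dioxygenase, rests on an FPKM listed near 0 in PBS+GSK-J4. *Dnmt3l* was at −1.01 and −0.71 and *Dnmt1* at −0.32 and −0.31. Of 12 germline genes, 5 and 6 were below 0, none was called lower and 2 were called higher, with medians of 0.25 and 0.01. *Taf7l* was at 1.05 and 1.73 and *Kit*, a receptor of germ cells, at −0.34 and −0.32, and the call of *Piwil2* rests on near-zero values in the DMSO libraries. Of the 2-cell-like state genes, 1 of 5 without AA and 2 of 3 with AA were below 0, with *Dux* called higher without AA, at 2.02 FPKM against 0.382, *Eif1a* at −0.77 and −0.89 and *Tcstv3* at 0.70 and 0.20.

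Many markers of differentiated cells had no value. Of the fibroblast markers, 6 were not analysed and 1 had a failed estimate. The endoderm, mesoderm, neuroectoderm and trophoblast markers without a value were not analysed, so their expression is unknown here. Among the fibroblast markers, 2 of 7 were below 0 in each comparison, with *Tagln* at 0.85 and 0.62 and *Vim* at −0.75 and −0.65. Of 6 listed in each, the endoderm markers had 1 with a value, *Sox7*, at −0.48 and −0.35, and the mesoderm markers had 2, of which *Mesp1* was under 1 FPKM in every library and *Eomes* was at −0.09 and 0.29. The neuroectoderm markers had 3, with *Tubb3* at −0.52 and −0.62, *Pax6* called lower without AA, at 0.176 FPKM against 1.44, and *Neurod1* called higher, at 13.8 FPKM against 3.01 in the cells without AA and at 11.3 against 3.10 in those with it, while the trophoblast markers had 3 and none was called, with *Tfap2c* at 0.30 and −0.25 and *Krt8* at 0.02 and 0.13. The part of these cells in the markers' ratios was not tested.

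**Figure D4:**
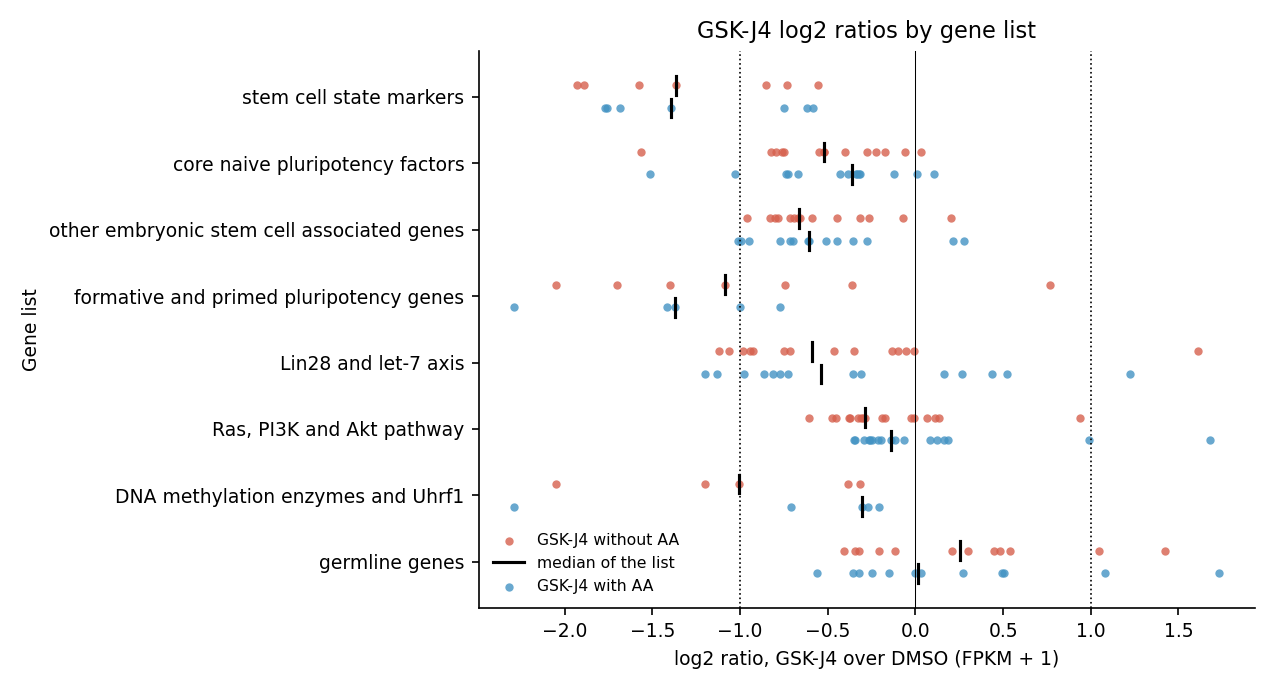
Log2 ratios of GSK-J4 over DMSO for the 7 markers and for 7 other gene lists, 1 point for each gene, without AA (red) and with AA (blue), with the median of each list as a black bar. The markers' medians of −1.37 and −1.39 sit beyond the dotted 2-fold line, as do those of the formative and primed genes (−1.08 and −1.37), while the core naive factors lie at −0.52 and −0.36.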

How the data were processed

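RNA-Seq libraries of LF2 ESCs were assigned to 4 conditions from their labels, 1 library each. The authors removed duplicate reads from single-end reads, used TopHat2 on mm10 per the submitters' processing notes, and deposited FPKM values calculated with Cufflinks2 in 2 tables, 1 without and 1 with AA. Removing duplicates can reduce the FPKM of strongly expressed genes such as *Utf1*. The FPKM columns are headed as log10 but hold linear values. The tables also hold the authors' fold changes, p-values and q-values, which were not used. A column spelled AA_DMAO was read as AA+DMSO.

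Each gene's FPKM is the sum of its coding sequence groups (11033 groups of 9936 genes). A failed estimate in the tables removed 157 genes. Log2 ratios used a pseudocount of 1 and the genes reaching 1 FPKM in at least 1 of the libraries compared. Calls need 2-fold. There is no replicate, so no test was run. Total read numbers are unknown, as the tables hold no counts. The calculation was tested on simulated data. The markers and the 13 gene lists were chosen with earlier results of these data known. Genes are named if they are markers or are among the 3 nearest profiles of a called marker. In each list, the 2 genes with the largest mean GSK-J4 ratio and the 1 with the highest mean FPKM are named. *Hras*, *Lin28b*, the chromosomal neighbours and the markers used to check the cell type are named beside them. *Ccnd1*, *Dux*, *Pax6* and *Tet3* are named for their calls, chosen after their values were seen. Alternatives were pseudocounts of 0.1 and 5, no filter, an FPKM of at least 5, scaling to equal totals or upper quartiles, centring on the median, thresholds of 1.5-fold and 4-fold, the highest coding sequence group, and inclusion of failed estimates. Promoters are from RefSeq (GRCm38.p6), and near copies were searched in GENCODE M21 with BLAST 2.17.0. Marker coordinates are as in the deposited tables. Python 3.11.15, numpy 2.4.6, pandas 2.3.3 and matplotlib 3.10.9 were used.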

Additional observations from a re-analysis of the deposited data

Results flagged for a closer look

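*Eras* and *Utf1* were picked out because their libraries lay on opposite sides with AA in DMSO and in GSK-J4. The log2 ratio of AA over PBS was −0.03 in DMSO and 0.14 in GSK-J4 for *Eras*, a difference of 0.17, and 0.04 and −0.15 for *Utf1*, a difference of −0.20. With 1 library for each condition these differences were not tested. The sign of *Eras* in DMSO turned under other scalings, between −0.03 and 0.05, while the ratios of *Utf1* kept their signs under all 12 settings. Only the scalings among these settings could have changed a sign.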

How the results depend on the processing

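The 7 markers were below 0 in both GSK-J4 comparisons under all 12 settings tried. Of these settings, only centring on the median, division by the upper quartile and scaling to equal totals could have changed a sign. Without and with AA, *Eras* ranged from −1.97 to −1.55 and from −1.80 to −1.43, *Lin28a* from −1.93 to −1.51 and from −1.72 to −1.36, *Utf1* from −1.59 to −1.19 and from −1.79 to −1.44, and *Dppa3* from −1.43 to −0.996 and from −1.45 to −1.07. Scaling to equal totals left 3 markers called without AA, because *Dppa3* was then just short of 2-fold, and 4 with AA. By construction a threshold of 1.5-fold gave more calls, 6 in each comparison, beside 19.3% of all genes called lower without AA and 17.8% with AA. The 6 were not the same genes, with *Tcl1* among them without AA only and *Dppa5a* with AA only. A threshold of 4-fold gave fewer by construction, 0 in each, beside 0.07% of all genes in each. The other settings gave 4 in each. No marker was called in the AA comparisons, or for the difference with and without AA, under any setting. Of the log2 ratios of single markers and their medians under these settings, 296 moved by 0.1 or less and 56 by more, and no called value changed sign. Many of the 296 could not move. The filters, the thresholds, the highest coding sequence group and the inclusion of failed estimates left every marker's ratio as it was. Division by the upper quartile moved the median of all genes to 0.07 in both GSK-J4 comparisons, and scaling to equal totals moved it to 0.16 and 0.14.

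No paired analysis was possible because the labels give no replicate numbers and no value here comes from a test. The 2 AA states were not treated as replicates of the GSK-J4 contrast. With 1 library for each condition, none was left out in turn. The tables hold no read counts. Depth and counting error are unknown, as is the replicate error of every marker.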
